A study of Drosophila melanogaster with 3 samples.

Results

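The chemosensory receptor genes of Drosophila melanogaster were examined for ChIP-seq peaks of Hairy, and almost all of them had no reproducible summit in the window used. They were taken as the protein-coding genes whose symbol begins with Or, Gr or Ir followed by a digit. The rule gave 179 receptor genes, 59 odorant receptors (Or), 60 gustatory receptors (Gr) and 60 ionotropic receptors (Ir), of 13945 protein-coding genes on the 6 chromosome arms analysed (2L, 2R, 3L, 3R, 4 and X). A further 7 Or and Ir genes annotated as pseudogenes were left out by that rule. The symbols carry the cytological position, so Gr63a lies in band 63 and Or9a in band 9. A gene was called bound if the summit of a reproducible peak lay between 1 kb upstream of its start and its end.

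The peaks came from anti-GFP ChIP-seq, which sequences DNA fragments precipitated with an antibody, on Hairy-GFP, a fusion of the basic helix-loop-helix repressor Hairy (gene h) with GFP at its C terminus. All 3 samples are biological replicates of 1 group, whole wandering larvae of the final instar, strain 15T-GFP, males and females pooled, of unstated age. The insert that carries the fusion is a transgene, and the labels name no promoter for it and do not say whether the native h gene is intact. No second genotype, treatment or time is among the samples, so no condition was compared and no test was run. Data of a control library were not analysed here, so binding of the fusion and peaks that arise without it cannot be told apart. The whole-animal label cannot be checked against markers in peak lists.

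Insects smell and taste with 3 large receptor families. Odorant receptors are ligand-gated channels that work with the coreceptor Orco in olfactory neurons, gustatory receptors detect sugars, bitter compounds and carbon dioxide, and ionotropic receptors are relatives of glutamate receptors that detect acids, amines, humidity and temperature. Most are transcribed in a few sensory neurons of the head, mouthparts, legs or wings, and many only in the adult. The lists do not say which cells of the larva a peak came from. A gene without a summit was therefore not shown to be unbound in every cell.

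Of the 179 receptor genes, 6 were bound (3.35%, exact 95% binomial interval 1.24 to 7.15%), beside 36.7% of all coding genes. The interval takes genes as independent draws and is no spread over replicates. The bound genes were Or9a, 2 Gr genes (Gr63a and Gr97a) and 3 Ir genes (Ir60e, Ir68a and Ir94h). Sequence at the summit is printed for 4 of them, Ir94h, Or9a, Gr63a and Ir68a, to show where each peak lies relative to the gene starts and motifs described below; that at Ir60e and Gr97a is not shown. All are plus-strand runs of the release 6 (dm6) assembly, up to 100 bp either side of the summit and ended at the edge of the nearest exon. Capitals mark matches to the motifs described further on, on either strand. The stretch for Gr63a is instead all of the DNA between its TSS (transcription start site), at the left end, and that of Lamtor4, at the right end. The windows are chr3R:23486839-23487039 for Ir94h, chrX:10460567-10460735 for Or9a, chr3L:3896604-3896899 for Gr63a and chr3L:11233650-11233850 for Ir68a.
Ir94h: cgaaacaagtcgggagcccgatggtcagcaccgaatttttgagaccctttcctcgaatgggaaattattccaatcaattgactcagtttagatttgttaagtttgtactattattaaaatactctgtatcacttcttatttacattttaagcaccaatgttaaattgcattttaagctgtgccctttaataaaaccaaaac
Or9a: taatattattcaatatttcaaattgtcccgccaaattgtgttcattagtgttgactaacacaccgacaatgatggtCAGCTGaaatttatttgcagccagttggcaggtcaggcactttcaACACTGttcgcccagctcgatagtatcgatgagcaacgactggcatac
Gr63a: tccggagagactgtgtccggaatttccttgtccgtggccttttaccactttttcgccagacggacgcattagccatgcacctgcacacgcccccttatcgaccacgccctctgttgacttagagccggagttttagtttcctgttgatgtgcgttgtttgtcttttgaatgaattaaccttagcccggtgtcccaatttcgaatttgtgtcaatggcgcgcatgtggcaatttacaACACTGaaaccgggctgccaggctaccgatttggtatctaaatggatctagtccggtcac
Ir68a: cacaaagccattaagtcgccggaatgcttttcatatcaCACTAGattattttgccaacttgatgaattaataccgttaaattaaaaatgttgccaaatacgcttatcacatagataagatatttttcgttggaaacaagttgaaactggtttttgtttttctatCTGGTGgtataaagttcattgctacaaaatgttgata

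Each peak was read with its signal value, a score of peak strength given by the authors with no stated scale, and with its rank by that score in the reproducible list of 10233 peaks and in the separate list of each replicate. Replicate lists hold 30000 peaks, and the strongest 10233 of each are called its top list. The median signal value of the reproducible list was 202.1, its lowest value 105.2, and the 7 summits at receptor genes lay between 108.9 and 484.2 with a median of 237.3. The receptor summits were therefore neither the strongest nor the faintest of the list.

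The strongest receptor peak lay upstream of Ir94h (FBgn0039080, chromosome 3R, gene at 23487501 to 23489180 on the plus strand), a single-exon gene and the last of the tandem group Ir94f, Ir94g and Ir94h. The peak spanned 23486782 to 23487103 with its summit at 23486939, between Ir94g and Ir94h, and 562 bp from the Ir94h TSS, the nearest coding TSS. Its signal value was 484.2, rank 1525 of the reproducible list. The peak over it had signal value 191.7 in replicate 1, 190 in replicate 2 and 98 in replicate 3, and ranked 1633, 1594 and 1541. Its mean rank of 1590 ± 46.2 (SD, n = 3) had the smallest SD of the 7 summits. The summit window is 34.3% G and C and holds none of the motifs searched.

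Or9a (FBgn0030204, chromosome X, 10458186 to 10459676, minus strand), an odorant receptor of the adult antenna, had the next strongest peak, at 10460553 to 10460779. The summit at 10460667 had signal value 355.3 and rank 2388, and ranked 2468, 2691 and 2915 in replicates 1, 2 and 3. It lay 991 bp upstream of Or9a, only 9 bp inside the 1 kb limit. The nearest TSS was that of Neb-cGP, 69 bp away on the opposite strand. In each replicate a peak covered this summit, but the replicate's own summit fell outside the window, so Or9a was bound in 0 of the 3 top lists.

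Gr63a (FBgn0035468, chromosome 3L, 3894999 to 3896603, minus strand) is one of the pair that forms the carbon dioxide receptor, with Gr21a. Its peak, at 3896623 to 3897052, had its summit at 3896838, 235 bp from the Gr63a TSS and 62 bp from the TSS of Lamtor4, a subunit of the Ragulator complex at the lysosome, which runs the other way. The 296 bp between these TSSs are printed above, so the summit lies between 2 divergent starts. Signal value was 175.7 and rank 6063. It ranked 6408 in replicate 1, 5074 in replicate 2 and 11151 in replicate 3, past the end of the last top list. Gr21a had no summit of either strength, and its nearest reproducible summit was 44733 bp from its TSS.

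Gr97a (FBgn0041224, chromosome 3R, 26965124 to 26966485, minus strand), a gustatory receptor, had its summit at 26967156, in an exon of the neighbour CG5521. The summit was 671 bp from the Gr97a TSS and 226 bp from that of CG5521. Its signal value was 237.3, rank 4202, with ranks of 4724, 4621 and 3471 in the 3 replicates (4270 ± 696, mean ± SD, n = 3). The peak was in all 3 top lists.

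Ir68a (FBgn0036150, chromosome 3L, 11232972 to 11236218, minus strand) is a receptor subunit for moist air, used together with Ir25a and Ir93a. It was the only receptor gene with a reproducible summit inside its own span. That summit, at 11233750 in an intron, was 2468 bp from its TSS and was the weakest of the 7, with signal value 108.9 and rank 9915. The peak over it ranked 14308, 8387 and 11296, so only replicate 2 had it in its top list.

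Ir60e (FBgn0035019, minus strand, 1 exon) was the only receptor gene with 2 reproducible summits. The stronger summit, 296 bp upstream, had signal value 248.4 and rank 3973, and lay 26 bp from the start of CG13585, which runs the other way. The weaker summit, 820 bp upstream and inside CG13585, had signal value 128.7 and rank 8445, and lay 20 bp from another TSS of CG13585. Ranks over the stronger summit were 2783, 4292 and 8164, and over the weaker one 7228, 7114 and 9153, so all were within the top lists.

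**Figure D1:**
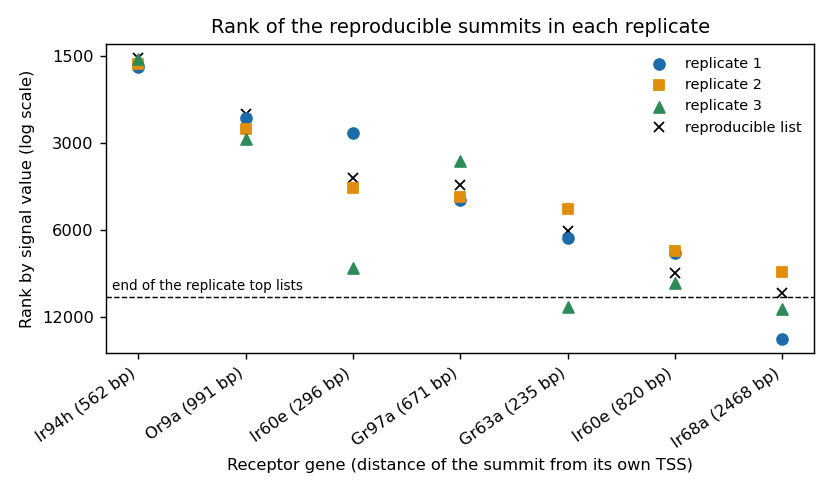
Rank by signal value (log scale, strongest at the top) of the peak over each of the 7 reproducible summits at receptor genes, in replicates 1, 2 and 3 and in the reproducible list; the dashed line is the end of the replicate top lists at rank 10233. The Ir94h ranks lie between 1525 and 1633, while Gr63a and Ir68a each have at least 1 replicate below the line.

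Of the 7 summits, 6 lay upstream and 1 inside a receptor gene, and no summit was shared by 2 receptor genes. All 7 were covered by a peak in all 3 full replicate lists, and 5 of 7 in all 3 top lists. Over the whole reproducible list, 95.4% of peaks were in all 3 full lists and 70.4% in all 3 top lists. The reproducible list was made from the same replicates, so this recovery is not independent of it.

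The summits of the bound genes often lay closer to a neighbour's start than to the receptor's. For 4 of the 6 bound receptor genes (Or9a, Ir60e, Gr97a and Gr63a, 66.7%) the strongest summit was nearest to the TSS of another coding gene, beside 29.4% of all bound coding genes. These neighbours were Neb-cGP, CG13585, CG5521 and Lamtor4, each on the strand opposite to its receptor gene. Ir94h and Ir68a were the exceptions. With the TSSs of all annotated genes, noncoding ones included, the count was 5 of 6. The Ir68a summit then lay nearer to lncRNA:CR45405 (2162 bp) than to its own TSS (2468 bp). Added TSSs can only keep or raise this count, and the share of all bound coding genes with them is not given here. A peak between divergent genes cannot be given to either of them from these data.

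**Figure D2:**
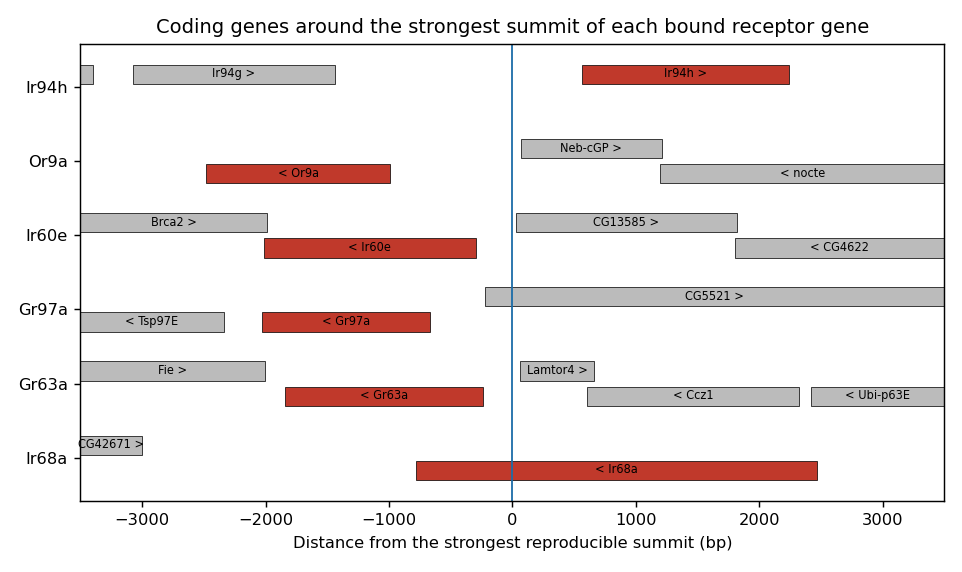
Coding genes around the strongest reproducible summit (vertical line) of each of the 6 bound receptor genes, in bp from the summit with the plus strand rightwards; the bound receptor gene of each line is red, other coding genes (Ir94g among them) grey, arrowheads give the strand, and genes with only a short end in view carry no name. The summit falls at the start of an opposite-strand neighbour for Or9a, Ir60e, Gr97a and Gr63a, before Ir94h, and inside Ir68a.

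Neighbours' starts within the windows were counted for all receptor genes. A TSS of another coding gene lay within the window of 36 receptor genes (20.1%), of which 3 were bound (8.33%). The other 143 had none there, and 3 of them were bound (2.1%). Among all coding genes, 45.5% had such a neighbour's TSS, and 49.8% of these were bound, beside 25.8% of those without one. Both shares of receptor genes therefore lay below those of all genes. Counting only neighbours outside the receptor families left 24 receptor genes with such a TSS, 3 of them bound.

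Neighbouring genes were counted by the same rule. Of the nearest coding neighbours that are not receptors, 73 of 247 were bound (29.6%), beside 36.7% of all coding genes. Their median length was 2581 bp, beside 1691 bp for receptor genes. Of these neighbours, 48 (19.4%) had a reproducible summit within 500 bp of a TSS, which is the promoter distance used here, beside 29.8% of all coding genes. Inside the span of another coding gene that is not a receptor lay 25 receptor genes. The host genes are long, with a median of 25432 bp over all 24 hosts. Of the hosts, 13 were bound (54.2%), beside 64.4% of coding genes of 6458 bp or longer. The host was bound for 12 of the 25 receptor genes, while 0 of the 25 were themselves bound, a count that allows a share of up to 12%. The bound share of other coding genes that lie inside a gene is not given here.

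The families were set side by side. The bound share was 1.69% for Or (1 of 59, interval 0.0429 to 9.09%), 3.33% for Gr (2 of 60, 0.406 to 11.5%) and 5% for Ir (3 of 60, 1.04 to 13.9%). These intervals cover counting error only and take genes as independent draws, though 79 receptor genes stand within 5 kb of another and some share 1 span. They are no spread over replicates and were not used to compare the families. By the top list of each replicate, Or genes were bound 0, 1 and 1 times in replicates 1, 2 and 3, Gr genes 4, 2 and 3 times, and Ir genes 2, 5 and 2 times. As percentages these were 1.13 ± 0.979, 5 ± 1.67 and 5 ± 2.89 (SD, n = 3), so Gr and Ir did not differ beyond the spread between replicates. All receptor genes together reached 3.72% ± 0.645 (SD, n = 3), with 6, 8 and 6 genes, beside 37.6% ± 0.715 of all coding genes. The share of receptor genes was therefore below that of coding genes in each of the 3 replicates.

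**Figure D3:**
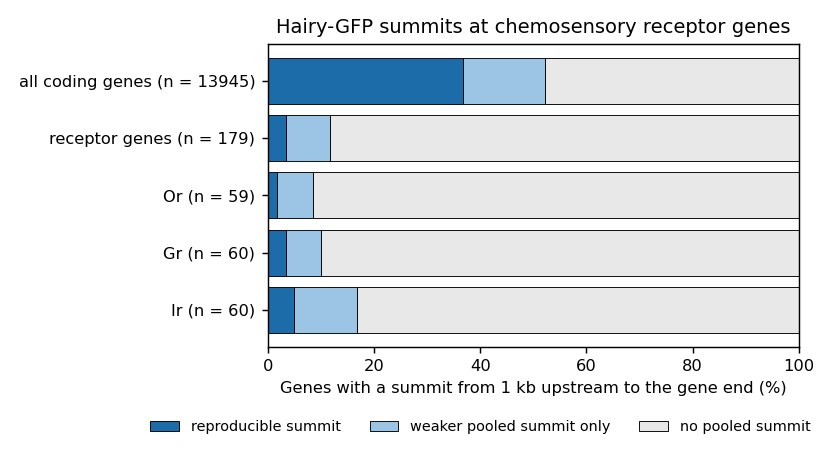
Percentage of genes with a reproducible summit, with a weaker pooled summit only, or with neither, from 1 kb upstream to the gene end, for all coding genes, all receptor genes and each family. Reproducible summits are at 36.7% of all coding genes and at 1.69, 3.33 and 5% of Or, Gr and Ir genes.

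The same receptor genes were not called every time. Of the 13 receptor genes bound in at least 1 top list, 3 (Ir60e, Ir94h and Gr97a) were bound in all 3. The matching share over all coding genes is not given here, so whether receptor calls vary more than others was not tested. The 8 that were not bound in the reproducible list were each in 1 top list only. They were Gr32a and Gr64a in replicate 1, Ir67c, Ir85a and Or88a in replicate 2, and Gr77a, Or10a and Gr10a in replicate 3. Or10a and Gr10a are annotated with the same span (chromosome X, 11413467 to 11417422, minus strand), so theirs is 1 window, counted once in each family and 2 times in the replicate 3 total and in the 8. Without Or10a, no Or gene was bound in replicate 3. Gr64b and Gr64c also share 1 span, with no reproducible or weaker summit.

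Receptor genes are short genes with few starts, and short genes were bound less often across the genome. Median length was 1462 bp for Or, 1397 bp for Gr and 1908 bp for Ir, beside 2166 bp for all coding genes, and 93.3% of receptor genes had 1 TSS beside 73.5%. With coding genes divided into 5 equal parts by length, from shortest to longest, the bound share was 15.5, 26.7, 32.2, 44.9 and 64.4%. Receptor genes in those parts numbered 0, 93, 61, 20 and 5, with 0, 4, 1, 1 and 0 bound. Coding genes from 1240 to 3374 bp long, the 10th to 90th percentile of receptor lengths, with 1 TSS were bound at 28.6% (1220 of 4260). Of the receptor genes in that range with 1 TSS, 6 of 139 were bound (4.32%). Per length of DNA, receptor windows held 7 reproducible summits in 616 kb (11.4 per Mb), beside 89.4 per Mb in the windows of all coding genes.

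The uniqueness of the windows was measured as well, since reads from copies cannot be placed. By 32-base words found once in the assembly on either strand, 6 receptor windows were under 90% unique (3.35%), beside 6.91% of coding genes. The lowest were the near-identical pair Or19a and Or19b, at 26 and 24.7%, and Ir93a at 49.2%. Or19a and Or19b had no summit of either kind, and a peak at either could not be told from a peak at its copy. Of receptor genes at 90% or above, 6 of 173 were bound (3.47%), beside 37.5%. Within 500 bp of the TSS the median G and C content was 42.2% for receptor genes and 42.4% for all coding genes.

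Around the start of receptor genes, the summits seen at other coding genes were mostly missing. In the kilobase upstream of the gene's 5′ end, 2.79% of receptor genes had a reproducible summit, beside 24.3% of coding genes. In the kilobase downstream it was 0% of 179, which allows up to 1.68%, beside 11.0%. Farther out the shares came closer, at a mean of 5.7% per kilobase from 5 to 10 kb upstream for receptor genes and 8.97% for coding genes. By the promoter measure, a reproducible summit within 500 bp of an own TSS, 2 of 179 receptor genes were bound (1.12%, Ir60e and Gr63a), beside 29.8%. Both were also within 500 bp of an opposite-strand neighbour's TSS.

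**Figure D4:**
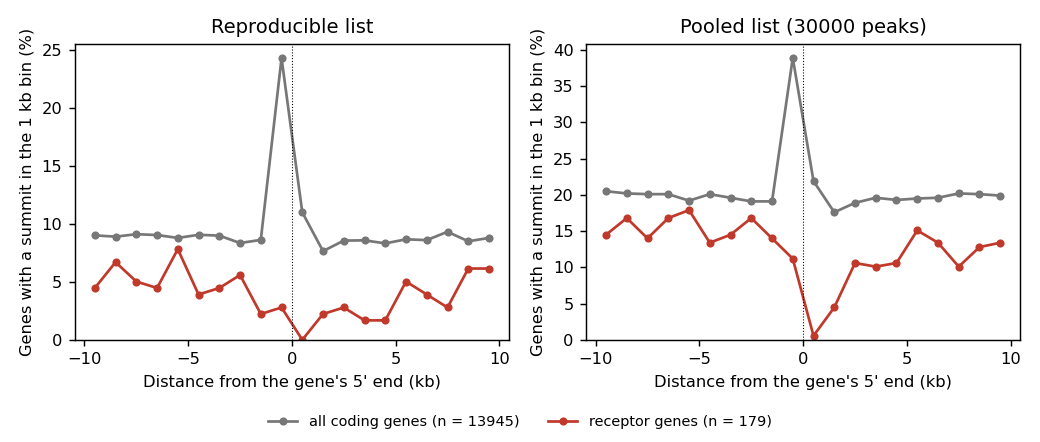
Percentage of receptor genes (red) and of all coding genes (grey) with a summit in each kilobase from 10 kb upstream to 10 kb downstream of the gene's 5′ end (0, dotted line), for the reproducible list on the left and the pooled list on the right. Coding genes peak at 24.3 and 38.9% in the first kilobase upstream; receptor genes have no such peak and fall to 0 and 0.559% in the first kilobase downstream.

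The median distance from a receptor TSS to the nearest reproducible summit was 13918 bp (quartiles 6280 and 30189.5 bp), beside 3785 bp (244 and 11657 bp) for all coding genes. It was 14337 bp for Or (quartiles 8424 and 33443 bp), 14109 bp for Gr (5429 and 36928.2 bp) and 11720 bp for Ir (5654.75 and 18975.2 bp). The upper quartile was lowest for Ir and the lower quartile highest for Or, differences that were not tested. A reproducible summit was within 5 kb of the TSS for 31 receptor genes (17.3%), beside 55.8%, and farther than 10 kb for 114 (63.7%), beside 28.5%.

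**Figure D5:**
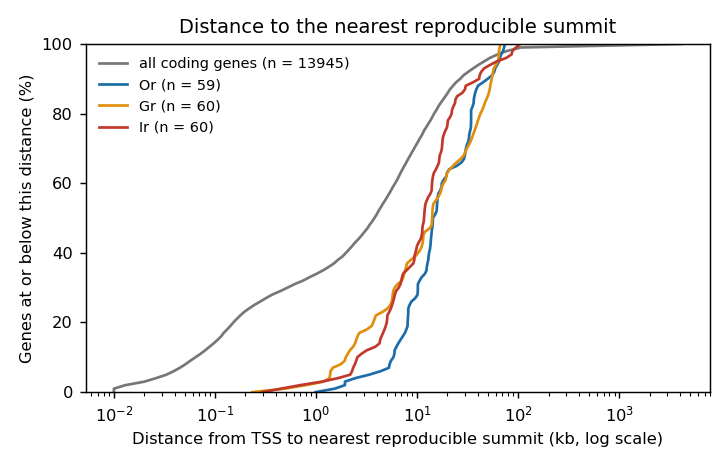
Percentage of genes whose TSS lies at or below a given distance (kb, log scale, with distances under 10 bp drawn at 10 bp) from the nearest reproducible summit, for all coding genes and the Or, Gr and Ir families. The medians of the 3 families, 14337, 14109 and 11720 bp, lie to the right of that of all coding genes, 3785 bp, and the Ir curve is left of the Or and Gr curves at the upper quartile.

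Several receptor genes fell just outside the window. The 5 nearest were Gr77a, with a summit 35 bp past its end (signal value 184.8), Gr89a, a bitter receptor (260 bp past the end, 276.6), Ir60b (314 bp short of the upstream limit, 106.8), Ir68b (321 bp past the end, 719.3) and Gr39b (343 bp short of the limit, 476). The Ir68b summit was 16 bp from the TSS of yps, and the Gr39b summit 178 bp from that of CG8665.

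Peaks of the pooled list that are not in the reproducible list are called weaker. The pooled list holds 30000 peaks, of which 19767 are weaker, with signal values from 23.2 to 105.2. A weaker summit lay in the window of 17 receptor genes (9.5%), beside 37.1% of all coding genes. For 15 of these it was the only kind (8.38%, beside 15.5%), and 158 receptor genes (88.3%) had no pooled summit, beside 47.8%. By family, weaker summits were at 4 Or, 5 Gr and 8 Ir genes. Counted over DNA, receptor windows held 34.1 weaker summits per Mb, beside 157, or 3 weaker per reproducible summit, beside 1.75.

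The 21 weaker summits had a median signal value of 50.4, beside 43.5 for all weaker peaks. In all 3 full replicate lists were 9 of them (42.9%, beside 41.9%), in all 3 top lists 0, and only the Ir93a summit was in no replicate list. Upstream lay 19, and 2 were inside a receptor gene, in Or67a and Ir93a. Nearest to the receptor gene's own TSS were 14 of 21, beside 2 of the 7 reproducible summits, and 9 genes (5.03%) had a weaker summit within 500 bp of it, beside 25.3%. By gene, the strongest weaker summit was nearest to another coding gene's TSS for 6 of 17 (35.3%), beside 23.6%.

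Sequences follow for 3 weaker summits. Gr77a and Ir94f were chosen because the nearest coding TSS is their own, and Or92a because its summit holds a class C site and lies beside another gene. All are on the plus strand of dm6, trimmed at exons, at chr3L:20739431-20739610, chr3R:23481401-23481601 and chr3R:20503747-20503893.
Gr77a: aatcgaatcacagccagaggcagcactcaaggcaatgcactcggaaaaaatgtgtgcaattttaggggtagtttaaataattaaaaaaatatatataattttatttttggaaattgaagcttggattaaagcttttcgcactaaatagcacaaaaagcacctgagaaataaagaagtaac
Ir94f: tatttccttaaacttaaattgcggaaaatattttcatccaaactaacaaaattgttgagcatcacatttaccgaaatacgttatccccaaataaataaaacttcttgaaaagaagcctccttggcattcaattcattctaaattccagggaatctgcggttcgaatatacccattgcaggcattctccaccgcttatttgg
Or92a: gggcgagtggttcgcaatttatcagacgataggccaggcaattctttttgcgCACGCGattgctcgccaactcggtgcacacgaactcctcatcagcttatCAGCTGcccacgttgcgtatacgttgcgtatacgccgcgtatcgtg

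The Gr77a summit (chromosome 3L, 20739510) was 80 bp upstream of its TSS, had signal value 88.2, and ranked 18480, 13616 and 8861 in replicates 1, 2 and 3. Gr77a had 2 further weaker summits, at signal values of 29.9 and 27.8. Together with the summit 35 bp past its end it lay between peaks on both sides while unbound by the rule. Gr77a and its 3 weaker summits lie inside the coding gene CG13252. The Ir94f summit (chromosome 3R, 23481501) lay 364 bp upstream, at signal value 61 and ranks of 21214, 17260 and 15254. In the tandem group the first and last genes, Ir94f and Ir94h, thus each had a summit upstream, the weaker at Ir94f, and Ir94g had none. Or92a is an odorant receptor for diacetyl. Its summit (20503793, signal value 60.4) lay 995 bp upstream, 5 bp inside the limit, and 47 bp from the TSS of MtnB, a metallothionein.

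The strongest weaker summit was at Ir85a, 917 bp upstream, with signal value 103.3 and rank 10389, and with ranks of 13363, 10218 and 10539 in the replicates. The gene lies inside the coding genes Pif1A and Pif1B. At Gr64a, the first gene of a cluster of sugar receptors, the summit was 836 bp upstream and 78 bp from the start of CG11594, with signal value 101.8 and ranks of 9766, 11609 and 20785. Or88a, an odorant receptor for a fly-derived ester, had 2 weaker summits, at signal values of 97.3 and 72.3, and CG12402 was the nearest gene to both. Ir67c had 1 at 262 bp, of signal value 76.1, which was missing from replicate 1. Gr97a had a weaker summit (69.1) beside its reproducible one. At Ir60a and Gr39b, the summits had signal values of 50.9 and 50.4 and were 190 and 489 bp upstream of the gene's own TSS. The Ir60a summit lay inside the coding gene nord.

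Subgroups with known roles were then examined, although several are small. Their counts stand beside shares over all coding genes of 36.7% bound, 37.1% with a weaker summit and 52.2% with any pooled summit, and over all receptor genes of 3.35, 9.5 and 11.7%. Of 25 odorant receptors known from the larval olfactory organ, which is the stage sampled, 0 had a reproducible or a weaker summit, which allows a share of up to 12%. Of 9 sugar receptors, 0 were bound, a share of up to 33.3%, and only Gr64a had a weaker summit. The nearest reproducible summit was 1381 bp from the TSS for Gr5a, a trehalose receptor, 3728 bp for Gr61a, 14042 bp for Gr43a, a fructose receptor, and 32801 to 41831 bp for the 6 genes Gr64a to Gr64f. All 6 bitter receptors shared by many taste neurons (Gr32a, Gr33a, Gr39a, Gr66a, Gr89a and Gr93a) lacked both kinds of summit, which allows up to 50%.

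The Ir coreceptors, with which other Ir subunits form channels, were not bound. Ir25a had a weaker summit of signal value 41.8, 97 bp upstream of its TSS and inside the coding gene tank. That summit was in 2 of the 3 full replicate lists. The nearest reproducible summit to Ir25a was 2569 bp away. Ir8a and Ir76b had no weaker summit, and their nearest reproducible ones were 11669 and 11900 bp away. Among 15 Irs of the antenna, Ir68a was bound and Ir60a and Ir93a had weaker summits only.

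By arm, 2L held 31 receptor genes with 0 bound, beside 34.2% of its coding genes, and 2R held 46 with 1, beside 35.3%. Arm 3L held 35 with 2, beside 37.3%, and 3R held 42 with 2, beside 37.4%. The X chromosome held 25 with 1, beside 40.4%, and chromosome 4 held 0 receptor genes. By grouping, again beside 36.7% of all coding genes, 100 receptor genes stood more than 5 kb from any other, of which 5 were bound, and 79 stood in 28 groups, of which 1 was bound (Ir94h). The largest group held the 6 sugar receptors Gr64a to Gr64f.

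Other gene lists of the chemical senses and of sensory channels were counted by the same rule, all beside 36.7% of all coding genes. Odorant-binding proteins, secreted carriers of odorants, were bound at 3 of 52 (5.77%, Obp83g, Obp99a and Obp99b). Chemosensory A and B proteins were bound at 2 of 20, and 0 of Orco, Snmp1, Snmp2 and to, which allows up to 75%. Pickpocket sodium channels were bound at 3 of 29 (10.3%), TRP channels at 3 of 12, rhodopsins at 1 of 7 (Rh5) and glutamate receptors outside the Ir family at 1 of 12 (Nmdar1). Of 8 transcription factors that set olfactory neuron identity, 4 were bound (pdm3, sim, Eip93F and lz), beside 36.7% of all coding genes. Those 8 genes are long, with a median of 19679 bp, so their count was set against no receptor list. Median lengths of the other lists ran from 789.5 bp (chemosensory A and B proteins) to 6270 bp (TRP channels). Their shares were therefore not compared with each other. In these lists, the strongest summit was nearest to the gene's own TSS for most bound genes, with CheB42c tied with mim. It was nearest to another coding gene's TSS for CheA56a, ppk22, ppk29, ppk30, pyx, pdm3 and Nmdar1. Over all bound coding genes, another gene's TSS was nearest for 29.4%. The pickpocket gene ppk30 and Obp99a were called by the same summit, of signal value 136.5.

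Sequence motifs were searched within 100 bp of each of the 7 reproducible summits at receptor genes, on both strands. Hairy and its relatives bind the class C site CACGCG, which matched at 0 of 7 receptor summits, beside 6.24% of all reproducible summits. The class B E-box CACGTG matched at 0 of 7, beside 2.11%. The N-box CACNAG matched at 2, Gr63a and Ir68a, beside 20.3%, with the Gr63a match beyond the printed stretch. The class A E-box CAGCTG matched at 2, Or9a and the weaker Ir60e summit, beside 9.47%. The word ACACTG, found at these peaks in earlier work on them, matched at 2, Or9a and Gr63a, beside 16.6%. The core promoter element GGTCACAC (Ohler 1) matched once, at Gr63a, beside 2.12% of all reproducible summits. That match runs across the Lamtor4 start and so is cut off at the right end of the printed stretch. The DRE, TATCGATA, matched at 0, beside 3%. With so few summits these counts are only a description.

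Weaker receptor summits held the class C site at 2 of 21, Or92a and Ir48b, beside 5.47% of all weaker summits. The N-box matched at 6 of 21, beside 19.9%, and the class A E-box at 2, beside 8.06%. Matching at 0 of 21 were the class B E-box, ACACTG, the DRE and Ohler 1, beside 2.22, 11.7, 1.11 and 0.971%. Around the TSSs themselves the elements of broadly used promoters were rarer at receptor genes. The DRE lay within 100 bp of 1 of 179 receptor TSSs (0.559%) beside 7.84% of coding TSSs, and Ohler 1 of 0 (up to 1.68%) beside 6.76%. ACACTG lay near 6.7% beside 14.9%, and the class C site near 2.23% beside 5.77%. The N-box differed least, at 23.5% beside 23.9%. The part of these elements in the low number of bound receptor genes was not tested.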

How the data were processed

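The authors deposited narrowPeak lists on dm6: per replicate, pooled, and a reproducible list thresholded by the irreproducible discovery rate (IDR), per the file names and deposited notes. Each list was made from the alignments and 1 further file, per those notes. Aligner, peak caller and threshold: not given in the sources used here. The authors' signal value is a score of no stated scale, and served to rank peaks, never to compare lists. The authors' deposited summit offset, in bp, was added to the peak start and written 1-based. Depth is unknown because the lists give no reads, and intervals and limits cover counting error only. The limit for a count of 0 is 3 counts of the total.

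Genes and TSSs were those of Ensembl release 115, and sequence came from the RefSeq dm6 assembly. A window ran from 1 kb upstream to the gene end. Assignment was tested on simulated summits at 200 genes. Python 3.11.15, pandas 2.3.3, NumPy 2.4.6, SciPy 1.17.1 and Matplotlib 3.10.9 were used. Lists on dm3 were not used.

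The receptor genes and other gene lists were chosen with earlier results of these data known. Named genes were all bound receptors, those with the 10 strongest weaker summits, the carbon dioxide, sugar and Ir coreceptor genes, the 5 nearest misses, and the owners of nearest TSSs. Genes outside that rule, such as Ir25a's partners and Or10a, were chosen after their values were seen. Alternatives changed the window, assignment, list, replicates required, TSS set and motif window.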

Additional observations from a re-analysis of the deposited data

How the results depend on the processing

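The count of bound receptor genes stayed within 1.5 times of 6 (coding 36.7%) for several settings. These included any overlap of the peak (7, coding 38.1%), the stronger part of the list (4, coding 24.8%) and peaks in all 3 top lists (4, coding 29.9%). Others were the mean of the replicate top lists (6.67, coding 37.6%) and windows at least 90% unique, chosen after seeing the data (6, coding 37.5%). Summits were then required to lie under a peak in the top lists of replicates 2 and 3, 1 and 3, or 1 and 2. This left 4, 4 and 5 bound genes (coding 31.1, 31.4 and 32.7%). The list was still made from all 3 replicates, so these counts could only stay or fall. The count of bound receptor genes changed with the window, while the share of coding genes changed too. With the gene body alone, 1 receptor gene was bound (Or 0, Gr 0, Ir 1; coding 19.3%) and 2 had a weaker summit (coding 25.2%). From 5 kb upstream to 1 kb past the end, 28 were bound (Or 4, Gr 14, Ir 10; coding 52.5%) and 68 had a weaker summit (coding 57.8%). Within 500 bp of a TSS, 2 were bound (Or 0, Gr 1, Ir 1; coding 29.8%) and 9 had a weaker summit (coding 25.3%). With each summit given to the nearest coding TSS alone, 2 were bound (Or 0, Gr 0; coding 28.5%). The whole pooled list bound 21 (Or 5, Gr 6, Ir 10; coding 52.2%). In the stronger part and in all 3 top lists, Gr fell to 1. With the top lists of 2 given replicates required, Gr ranged from 1 to 2, Or stayed at 1 and Ir was 2. Of 17 genes with a weaker summit, 8 had one in all 3 full lists (coding 24.0%). In the full lists of 2 given replicates, 9 to 12 had one (coding 26.9 to 28.8%). The cause of these moves, beyond each setting's wider or narrower window or list, was not tested.

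The median distance was 5417 bp with the pooled list (coding 999 bp) and 18653 bp with the stronger part (7410 bp). No paired analysis was possible because the series has 1 group. Depth is unknown, and the few bound genes limit every comparison of families.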
